A study of Mus musculus with 15 samples.

Results

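The 10 genes that mark lipid-associated macrophages, Trem2, Gpnmb, Spp1, Cd9, Cd63, Fabp5, Lgals3, Mmp12, Lpl and Ctsd, were followed in the livers of 15 male C57BL/6J mice. Of these 10 genes, 8 are named by probe sets in the array annotation used here, with 12 probe sets in all, among 18194 genes named by a single symbol on the whole array. Spp1, which encodes the matrix protein osteopontin, and Cd63, a tetraspanin of late endosomes, were not analysed here. The mice entered the experiment at 8 weeks of age and were fed for 12 weeks. In the CL+CX group, 5 mice were fed the CL diet with β-cryptoxanthin, a carotenoid, added. In the CL group, 5 mice were fed the CL diet alone, which was 38.23% CRF-1 chow and 60% cocoa butter, with cholesterol at 1.25% and sodium cholate at 0.5%. In the NC group, 5 mice were fed CRF-1 standard chow. The dose of β-cryptoxanthin is 0.003% of the diet in the treatment text of the labels and in the methods, and 0.005% in the titles of the CL+CX samples. Each liver was measured on its own Affymetrix GeneChip array for the mouse genome.

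Lipid-associated macrophages are macrophages that gather around dying, lipid-laden cells in adipose tissue, atherosclerotic plaques and steatotic liver. TREM2, a surface receptor that binds lipids, lipoproteins and apoptotic cells, signals through the adaptor TYROBP and sustains the programme, which equips the cell to take up lipid and to break it down in lysosomes. The other members are lysosomal and membrane proteins (GPNMB, CD63, cathepsin D), proteins that hydrolyse or carry fatty acids (LPL, FABP5), the lectin galectin-3 (LGALS3), the tetraspanin CD9 and the macrophage elastase MMP12. In the liver these cells are distinguished from resident Kupffer cells, which carry CLEC4F, VSIG4 and MARCO. Several members are not particular to macrophages: Ctsd and Cd9 are expressed in many cell types, and Lpl in fat and muscle. A whole liver was measured, so fewer cells of a type and less RNA per cell cannot be told apart.

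The promoters are shown for the 3 members whose signals differed most among the mice of the CL diet (Trem2, Gpnmb and Mmp12) and for the lysosomal protease gene Ctsd, whose promoter holds repeated E-box cores. The RefSeq table used here (GRCm38.p6) holds promoters of 8 of the 10 members, and not of Fabp5 and Lpl. Each line is the 250 bases before the start site, read 5′ to 3′ on the gene's strand, and for Mmp12 it is 1 of the 2 start sites listed. Capitals mark matches, on either strand, to CACGTG (E-box core, bound by the MITF and TFE family), CATGTG (a variant of it), TGACTCA (AP-1), GAGGAAGT (an ETS site of the kind PU.1 binds) and TATAAA. No matches overlapped.
Trem2 chr17:48346151-48346400 (+ strand): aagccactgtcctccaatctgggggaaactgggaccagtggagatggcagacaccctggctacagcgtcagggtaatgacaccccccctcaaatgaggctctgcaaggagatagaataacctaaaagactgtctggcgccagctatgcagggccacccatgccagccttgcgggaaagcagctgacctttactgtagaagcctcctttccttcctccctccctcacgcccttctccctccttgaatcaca
Gpnmb chr6:49036268-49036517 (+ strand): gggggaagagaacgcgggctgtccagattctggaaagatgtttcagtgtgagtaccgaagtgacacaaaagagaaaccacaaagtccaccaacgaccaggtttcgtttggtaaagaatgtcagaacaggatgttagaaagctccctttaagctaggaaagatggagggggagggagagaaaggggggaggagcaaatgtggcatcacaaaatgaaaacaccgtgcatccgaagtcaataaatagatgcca
Mmp12 chr9:7347124-7347373 (+ strand): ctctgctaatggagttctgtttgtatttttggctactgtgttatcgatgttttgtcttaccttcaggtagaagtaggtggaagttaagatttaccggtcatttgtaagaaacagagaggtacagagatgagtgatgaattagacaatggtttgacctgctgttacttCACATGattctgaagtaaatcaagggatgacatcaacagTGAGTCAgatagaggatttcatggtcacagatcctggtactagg
Ctsd chr7:142387828-142388077 (- strand): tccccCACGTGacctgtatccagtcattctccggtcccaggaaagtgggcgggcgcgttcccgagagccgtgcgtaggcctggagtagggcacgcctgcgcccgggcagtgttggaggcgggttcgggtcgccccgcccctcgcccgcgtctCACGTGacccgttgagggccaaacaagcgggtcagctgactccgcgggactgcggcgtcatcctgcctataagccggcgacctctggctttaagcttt
The Ctsd promoter held 2 matches to CACGTG, which begin 245 and 98 bases before the start site. Of all 32851 promoters of this length, 6.02% held at least 1 such match. The Mmp12 promoter held 1 match to TGACTCA, at 44 bases, and 1 to CATGTG, at 83 bases, both on the opposite strand (4.46% and 12.3% of all promoters). The promoter of the other Mmp12 start site held 1 match to GAGGAAGT (2.44% of all promoters), and that of Cd9 held 1 to CATGTG. A promoter of Spp1 held 1 match to GAGGAAGT, at 113 bases, and 1 to TATAAA, at 211 bases. Those of Trem2, Gpnmb, Lgals3 and Cd63 held none of the 5 motifs in this window. TATAAA was found in 12.4% of all promoters and in none of the 4 printed. A match is a run of letters and not a measured binding site.

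Signals are MAS5 intensities, scaled here to a common 75th percentile of 54.1 per array, and log2 differences come from limma on 20342 probe sets that reached the median signal of the array in every mouse of 1 or more diets. Array medians after scaling lay between 11.3 and 13.5, so a signal near 12 is a dim one. A probe set that lies below the array median on all 5 arrays of a group has only a bound there, and its fold is given as "at least". Adjusted p-values are by Benjamini-Hochberg over all probe sets tested, with a threshold of 0.05. Of the 12 probe sets of the members, 9 probe sets of 7 genes were tested. The 7 probe sets of Lpl, Fabp5, Cd9, Lgals3 and Ctsd were at or above the median on all 15 arrays. Gpnmb (the brighter of its 2 probe sets) passed through the CL+CX and CL mice and Mmp12 through the CL+CX mice alone, and Trem2 did not pass. For Gpnmb and Mmp12 the filter thus favoured a difference from NC, and their calls against NC are no independent support. The array of CL replicate 2 had a mean correlation of 0.941 with the other CL arrays, against 0.957 to 0.962 for the other 4 CL arrays.

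Trem2, the receptor of the programme, rose above the array median in some mice of both CL diets and in no NC mouse. Its brighter probe set had signals of 39.9, 12.8, 3.47, 2.37 and 3.59 in CL+CX mice 1 to 5, of 73.6, 5.63, 2.14, 63.8 and 68.1 in CL mice 1 to 5, and of 1.82, 3.38, 3.85, 2.50 and 1.34 in NC mice 1 to 5. CL replicates 1, 4 and 5 were thus high, CL replicates 2 and 3 lay among the NC mice or close to them, and the highest CL mouse had 34.4 times the signal of the lowest. The signal was at or above the array median in 2 CL+CX, 3 CL and 0 NC mice. The CL mean was at least 1.69-fold higher than the NC mean only with CL replicates 2 and 3 taken as measured. These 2 also lay below the array median, so this is no strict bound, and the groups overlapped. Without the filter on low signals, over 45037 probe sets, the log2 difference was 3.11 between CL and NC (standard error 1.03, unadjusted p = 0.00922, limma adjusted p = 0.145) and -1.60 between CL+CX and CL (standard error 1.03, adjusted p = 0.632), and neither passed the threshold. The other probe set of Trem2 lay between 0.815 and 14.1 in all 15 mice, was at or above the median on 1 CL+CX and 1 CL array, and was not tested.

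Gpnmb encodes a transmembrane glycoprotein of lysosomes and of the surface of lipid-laden macrophages. Its signal was 376, 155, 39.2, 60.5 and 27.1 in CL+CX mice, 377, 29.2, 70.3, 470.4 and 365 in CL mice and 7.94, 17.8, 13.0, 15.9 and 5.19 in NC mice (brighter probe set). All 5 mice of each CL diet lay above every NC mouse. The same 3 CL mice as for Trem2, replicates 1, 4 and 5, were high. Gpnmb was 15.4-fold higher in CL mice than in NC mice (log2 3.95, standard error 0.80, limma adjusted p = 0.00519) and 7.56-fold higher in CL+CX mice than in NC mice (2.92, standard error 0.80, adjusted p = 0.0318). It passed the filter through mice of the CL diets alone, so these tests against NC are no independent support. In NC mice its signal was near the array median, which 3 of the 5 reached. Under another processing the log2 difference between CL and NC was as low as 2.83. The log2 difference of CL+CX against CL was -1.03, with a 95% interval of -2.73 to 0.67 (adjusted p = 0.516), so neither no change nor a 4-fold fall lies outside the interval. Its spread among CL mice (SD 1.79 on the log2 scale) was at the 99.8th percentile of all probe sets tested. The other probe set did not exceed 3.12 in any mouse and was below the array median on all 15 arrays.

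Mmp12, the elastase that macrophages secrete, had signals of 133, 44.6, 18.4, 17.5 and 27.7 in CL+CX mice, 121, 11.0, 15.99, 173 and 157 in CL mice and 0.737, 4.57, 2.04, 1.66 and 0.450 in NC mice, where each array had it under its median. CL replicate 2 was below its array median, and all mice of the CL diets lay above every NC mouse. Mmp12 was at least 2.85-fold higher in CL+CX mice than in NC mice (fitted log2 4.34, limma adjusted p = 0.0041) and at least 4.60-fold higher in CL mice than in NC mice (fitted log2 5.03, adjusted p = 0.000896). The bound for CL mice takes CL replicate 2 as measured. The fitted values depend on the floor set for low signals and are not measures of fold. Between CL+CX and CL the difference was -0.69 (95% interval -2.37 to 0.99, adjusted p = 0.684).

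**Figure D1:**
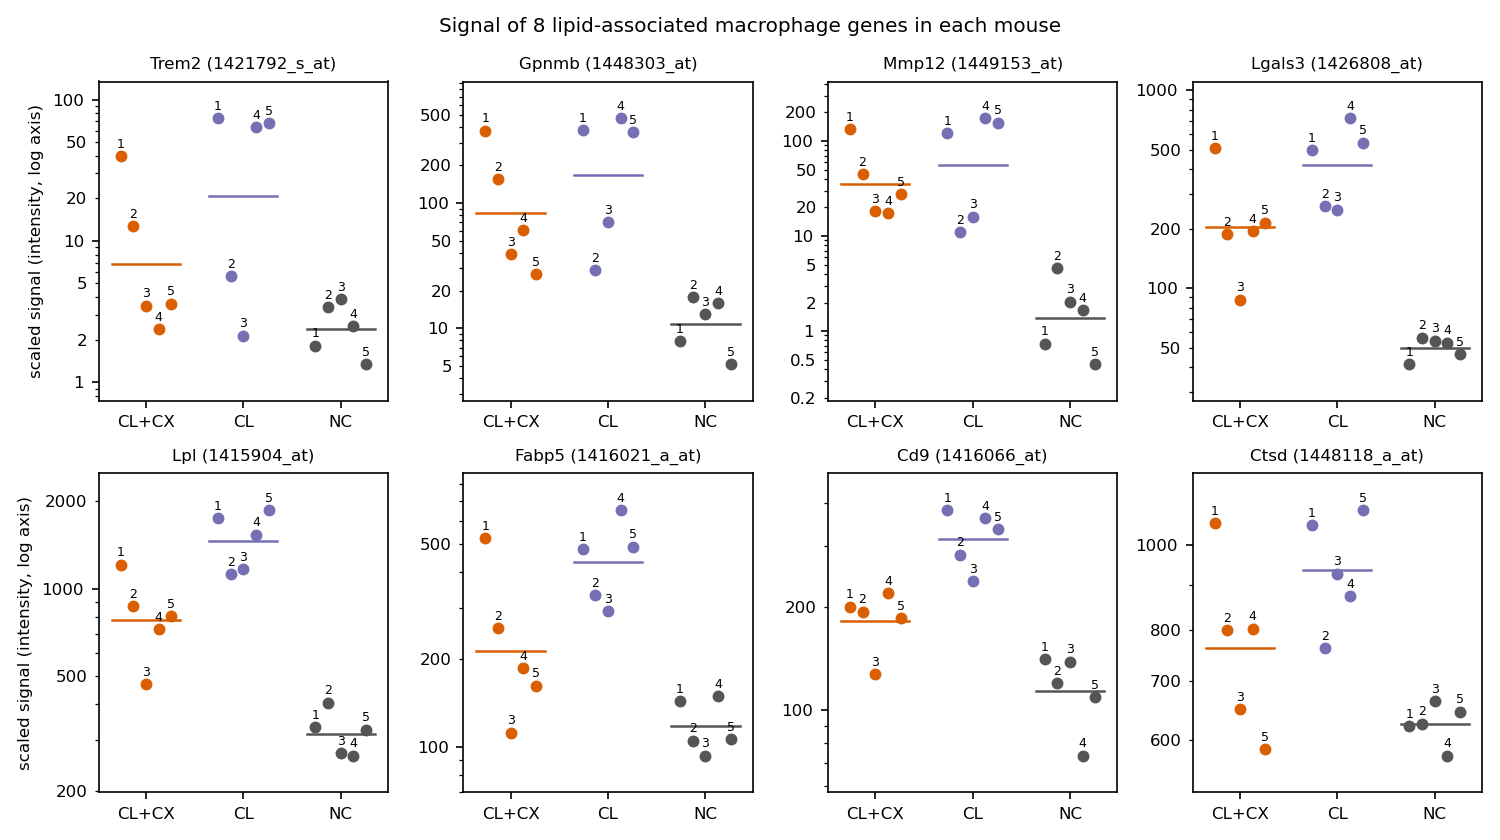
Scaled signal (vertical log axes, intensity) of 8 members by diet, with a point per mouse labelled by its replicate number and a line at the geometric mean of 5 mice. For Trem2, Gpnmb and Mmp12 the CL mice 1, 4 and 5 lie far above CL mice 2 and 3, and CL+CX mouse 1 is the highest of its group. For Lpl and Cd9 the spread within a diet is smaller than the distance between CL and NC mice.

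Lgals3, which encodes the β-galactoside-binding lectin galectin-3, had signals of 511, 189, 87.7, 195 and 214 in CL+CX mice, 500.4, 259, 250.1, 723 and 545 in CL mice and 41.5, 56.3, 54.4, 53.1 and 46.4 in NC mice. The diets did not overlap between CL and NC or between CL+CX and NC. Lgals3 was 8.36-fold higher in CL mice than in NC mice (log2 3.06, standard error 0.38, limma adjusted p = 0.000149) and 4.08-fold higher in CL+CX mice than in NC mice (2.03, adjusted p = 0.0045). CL+CX replicate 1 had a signal near that of the CL mice, and the other 4 CL+CX mice lay below all 5 CL mice. Between CL+CX and CL the difference was -1.03 (standard error 0.38, 95% interval -1.83 to -0.24, adjusted p = 0.138), and without CL+CX replicate 1 it was -1.37 (adjusted p = 0.0318). No other alternative, with any other mouse left out included, gave a call for Lgals3 between CL+CX and CL.

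Lpl, the lipase that releases fatty acids from triglyceride-rich lipoproteins, had signals of 1211, 871, 467, 726 and 803 in CL+CX mice, 1753, 1121, 1167, 1534 and 1870.0 in CL mice and 333, 404, 270.5, 266 and 327 in NC mice (brighter probe set). The 3 diets were ordered NC, CL+CX, CL by their means, with overlap only of CL+CX replicate 1 with CL replicates 2 and 3. Lpl was 4.61-fold higher in CL mice than in NC mice (log2 2.20, standard error 0.22, limma adjusted p = 4.8e-05) and 2.46-fold higher in CL+CX mice than in NC mice (1.30, adjusted p = 0.003). Relative to CL mice it fell by 0.90 in CL+CX mice (log2, standard error 0.22, adjusted p = 0.0408), a 1.87-fold lower signal. The second probe set had log2 differences of 2.34 between CL and NC (adjusted p = 0.00013) and -1.0 between CL+CX and CL (standard error 0.28, adjusted p = 0.0655). Its signals were 102 to 282 in CL+CX mice, 211 to 478 in CL mice and 51.1 to 92.6 in NC mice.

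Fabp5, a carrier of fatty acids in the cytosol of macrophages and epithelia, had signals of 523, 256, 112, 187 and 162 in CL+CX mice, 479, 333, 293, 653 and 489 in CL mice and 144, 105, 93.5, 149.7 and 107 in NC mice (brighter probe set). CL+CX replicate 1 lay within the CL mice, and the other 4 lay below all of them. Fabp5 was 3.66-fold higher in CL mice than in NC mice (log2 1.87, standard error 0.33, limma adjusted p = 0.00213). CL+CX and NC mice overlapped (0.87, adjusted p = 0.106). The second probe set had signals of 35.5 to 129.7 in CL+CX mice, 81.6 to 182 in CL mice and 21.8 to 52.2 in NC mice and was 3.69-fold higher in CL mice than in NC mice (adjusted p = 0.00249). In CL+CX against CL the differences of the probe sets were -1.01 (adjusted p = 0.107) and -1.13 (adjusted p = 0.0831), both with a standard error under 0.35, and without CL+CX replicate 1 they were -1.33 and -1.44 (adjusted p = 0.0162 and 0.0169). Leaving out any other mouse gave no call for either probe set in this comparison.

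Cd9, a tetraspanin that organises receptors in the plasma membrane, was the only member tested whose CL+CX and CL mice did not overlap. Its signal was 199.7, 193, 127, 218 and 185 in CL+CX mice, 382, 283, 237, 362 and 336 in CL mice and 141, 120.0, 138, 73.7 and 109 in NC mice. Every CL mouse lay above every CL+CX mouse and every NC mouse. Cd9 was 2.78-fold higher in CL mice than in NC mice (log2 1.48, standard error 0.20, limma adjusted p = 0.000264). It fell in CL+CX mice relative to CL mice by 0.80 (standard error 0.20, adjusted p = 0.041), a 1.74-fold lower signal, and remained 1.60-fold above NC mice (0.68, adjusted p = 0.0401), with CL+CX replicate 3 within the NC range.

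Ctsd, which encodes the lysosomal aspartic protease cathepsin D, had the smallest difference among the members. It was 1058, 800.4, 651, 804 and 586 in CL+CX mice, 1054, 763, 927, 875 and 1096 in CL mice and 622, 626, 664, 576 and 647 in NC mice. All CL mice lay above all NC mice. Ctsd was 1.49-fold higher in CL mice than in NC mice (log2 0.58, standard error 0.15, limma adjusted p = 0.0207), and this call was lost with no filter (adjusted p = 0.0851) and with the β-actin difference of the array as a covariate (adjusted p = 0.0776). CL+CX mice spread over both other groups, and the differences of -0.29 against CL (95% interval -0.61 to 0.03, adjusted p = 0.299) and 0.29 against NC (adjusted p = 0.24) did not pass.

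Between CL and NC mice, all 7 probe sets that passed the filter in every diet rose, and the diets did not overlap for any of them. Among all probe sets tested, 5.9% rose in CL mice at this threshold and 4.92% lay above NC without overlap. In CL+CX against NC mice 4 of the 7 rose, those of Lpl, Cd9 and Lgals3, against 4.81% of all probe sets, and 3 of them did not overlap, against 5.61%. In CL+CX against CL mice 2 of the 7 fell, those of Cd9 and 1 of Lpl, against 1.55% of all probe sets, and Cd9 alone of the 7 did not overlap, against 2.02%. All 7 also differed in the test over the 3 diets, against 15.6% of all probe sets. The call of Lpl between CL+CX and CL was lost without any of 10 of the 15 mice (adjusted p = 0.0523 to 0.102), and so was that of Cd9 (adjusted p = 0.0515 to 0.113), with the estimates at -0.98 to -0.72 for Lpl and -0.86 to -0.67 for Cd9 without them. The number of member probe sets called lower ranged from 0 to 6 with 1 mouse left out, with 6 when it was CL+CX replicate 1.

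**Figure D2:**
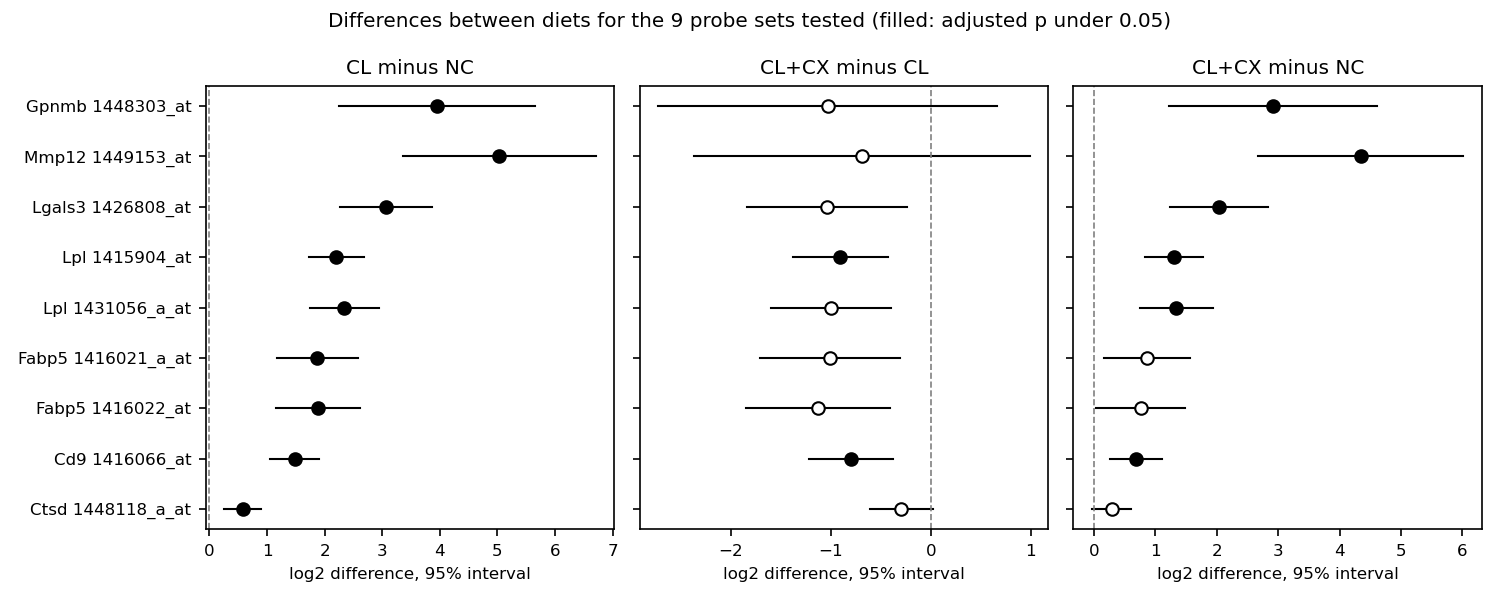
Log2 differences between diets (horizontal axes) for the 9 probe sets of members that were tested, with 95% intervals from limma (5 mice per diet) and filled points at an adjusted p under 0.05. The 7 probe sets that passed the filter in every diet are filled for CL minus NC and lie below 0 for CL+CX minus CL, where 2 are filled. Mmp12 and Gpnmb, whose difference from NC the filter favoured, have the widest intervals.

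As a description of size, the CL+CX mean of Cd9 lacked 53.9% of the log2 difference between CL and NC, that of Fabp5 53.7%, of Ctsd 50.7%, of Lpl 40.98% and of Lgals3 33.8%. For Gpnmb, whose difference from NC the filter favoured, it was 26.1%. These shares use the same CL mice on both sides and carry the intervals of the differences above.

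The 3′ to 5′ signal difference of the β-actin control, a measure of RNA integrity and labelling, moved with the comparison of CL+CX and CL. It was 1.07 ± 0.101 (log2, SD, n = 5) in CL+CX mice, 0.82 ± 0.0968 in CL mice and 0.94 ± 0.0859 in NC mice, and differed between CL+CX and CL (exact permutation test, two-sided, p = 0.00794, which is the lowest value possible here, adjusted p = 0.0318 over 12 comparisons). The GAPDH control differed in the same direction, at -0.25 in CL+CX mice and -0.45 in CL mice (exact p = 0.0159, adjusted p = 0.0382). With the β-actin difference as a covariate, Lpl was at -0.67 (adjusted p = 0.911) and Cd9 at -1.01 (adjusted p = 0.727) between CL+CX and CL, and no member was called. Without it they were at -0.90 and -0.80. The β-actin difference was 0.949 to 1.17 in CL+CX mice and 0.699 to 0.945 in CL mice, without overlap. The covariate thus ran with the diet, so this fit cannot separate them, and the lost calls decide nothing about RNA integrity. Markers of sinusoidal endothelial cells also moved: 2 of 10, the lectin gene Clec4g (-0.83, adjusted p = 0.0349) and Oit3 (-0.97, adjusted p = 0.0282), fell in CL+CX relative to CL mice, where 1.78% of all genes fell, with a median of -0.76 over the 10. Both calls were lost under at least 2 alternatives. The mean log2 level of the 10 genes relative to NC was -1.07 to 0.08 in CL+CX mice and -0.07 to 0.28 in CL mice. The part of these measures in the differences of the members was not tested.

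In the CL group most members were high or low in the same mice. In CL+CX replicates 1 and 3 all of them deviated in the same direction. NC mice were mixed: NC replicate 4 deviated from the NC mean by 0.55 for Gpnmb and -0.62 for Cd9 (log2). In deviations from the mean of their own diet, Trem2 and Mmp12 had the highest correlation of 28 pairs of members (r = 0.93, rho = 0.94, 15 mice), Gpnmb and Mmp12 followed at 0.92, and the lowest was that of Gpnmb and Cd9 at 0.38. The median over the 28 pairs was 0.70. These are descriptions, and both genes of a pair are read on the same 15 arrays. Pairs of other genes were not computed for comparison. Trem2 was at or above the array median in 5 and Mmp12 in 9 of the 15 mice, so dim signals enter their correlation. The mean log2 level of the 5 genes that passed the filter in every diet, relative to NC, was 1.80, 1.12, 0.30, 1.03 and 0.90 in CL+CX mice 1 to 5 and 2.06, 1.46, 1.43, 2.15 and 2.09 in CL mice 1 to 5. CL replicates 2 and 3 were the lowest CL mice and lay within the range of the CL+CX mice, below CL+CX replicate 1.

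The general markers of macrophages and monocytes were mixed in how they divided the CL mice. The mean over their 10 tested genes was 1.57, 0.82, 0.44, 0.94 and 1.30 in CL+CX mice and 1.87, 1.65, 2.21, 2.23 and 1.96 in CL mice, with CL replicate 3, low for the members, among the highest and CL replicate 2 the lowest. All 10 rose in CL mice, by a median of 1.97, where 7.2% of all genes rose, and 6 of the 10 rose in CL+CX against NC mice, where 5.11% of all genes did. Of these genes, Ccr2 passed the filter through mice of the CL diets alone, which favoured its rise against NC. Tyrobp, the adaptor of TREM2, was 341, 136, 95.5, 168 and 246 in CL+CX mice, 278, 494, 468, 533 and 454 in CL mice and 65.6 to 126 in NC mice, and CL replicates 2 and 3 were not low for it. Cd68, a lysosomal marker of macrophages, was 119, 62.5, 40.6, 31.0 and 58.5 in CL+CX mice, 195, 80.0, 131, 187 and 196 in CL mice and 27.7 to 43.6 in NC mice, with CL replicates 2 and 3 the lowest CL mice, as for the members. Ccr2, the receptor that brings monocytes into tissue, and Lyz2, the lysozyme gene of myeloid cells, also had CL replicates 2 and 3 lowest among CL mice. Cd14, of the same list, did not: it was 118, 87.7, 244, 146 and 104 in CL mice 1 to 5, with replicate 3 the highest.

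Markers of resident Kupffer cells were highest in the CL mice in which Trem2, Gpnmb and Mmp12 were low, and CL replicate 5 was high for both. Clec4f, a lectin of Kupffer cells, was 277, 228, 224, 196 and 202 in CL+CX mice, 241, 702, 690.3, 192 and 449.7 in CL mice and 115 to 255 in NC mice. Marco, a scavenger receptor, was 138, 133, 90.0, 246 and 201 in CL+CX mice, 52.7, 363, 643, 101 and 246 in CL mice and 18.3 to 70.1 in NC mice. CL replicates 2 and 3 thus held the highest signals of both genes, CL replicate 5 an intermediate one, and CL replicates 1 and 4 signals within the range of the other diets for Clec4f. The mean over the 10 Kupffer cell markers relative to NC was 0.04 to 0.47 in CL+CX mice and 0.18, 1.78, 1.77, 0.16 and 1.12 in CL mice 1 to 5. Of the 10, 5 rose in CL against NC mice, where 7.2% of all genes rose. They were Marco (2.24), Cd5l (1.84), Vsig4 (1.61), Folr2 (1.33) and Clec4f (1.07, standard error 0.33, adjusted p = 0.0473), with the call of Clec4f lost under 17 of 26 alternatives and that of Folr2 (adjusted p = 0.0257) under 7. Between CL+CX and CL mice the 10 had differences of -1.07 to -0.06 (limma adjusted p = 0.0778 to 0.916). Markers of stellate cells followed the members in CL mice, at 1.09, -0.09, 0.28, 0.97 and 0.94 over 9 genes, and were 0.07 to 0.62 in CL+CX mice. Hepatocyte markers were at -0.61 to -0.32 in CL+CX mice and at -0.63, -0.09, -0.10, -0.77 and -0.34 in CL mice over 9 genes, nearest to NC in CL mice 2 and 3. The part of the numbers of these cells in the members' values was not tested.

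**Figure D3:**
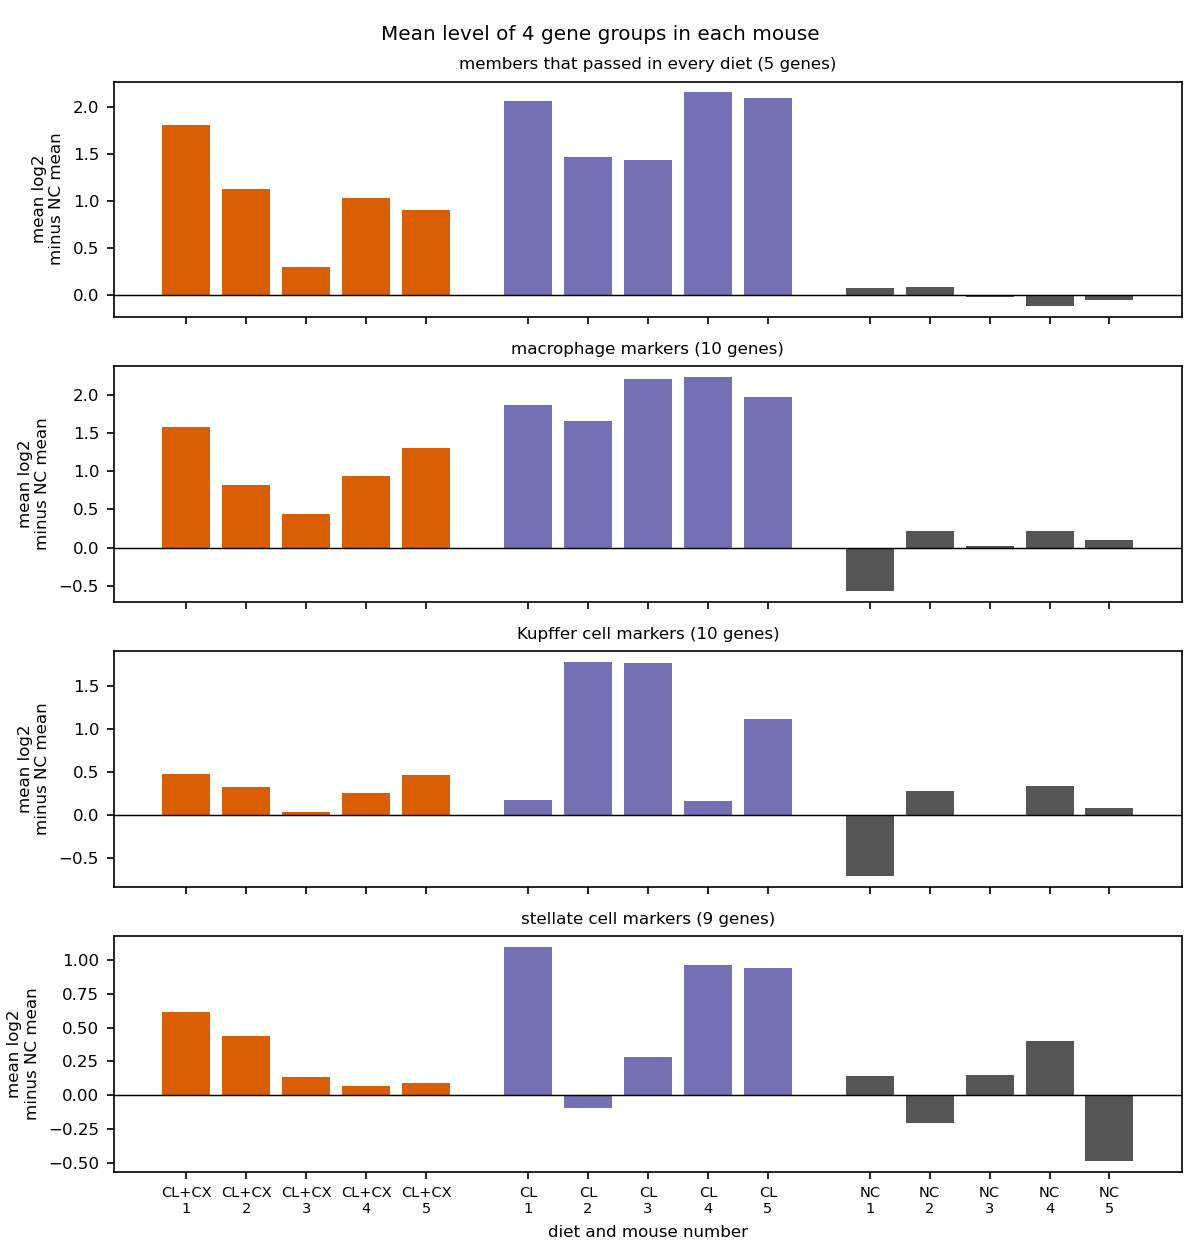
Mean log2 level of 4 gene groups in each mouse, relative to the NC mean (vertical axes), with a bar per mouse. The 5 members that passed the filter in every diet are at 1.46 and 1.43 in CL mice 2 and 3, where the Kupffer cell markers are at 1.78 and 1.77, and at 2.06 and 2.15 in CL mice 1 and 4, where those markers are at 0.18 and 0.16. CL mouse 5 is high for both, at 2.09 and 1.12.

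Among the genes outside the members, 10 had deviations from the diet means most like the mean deviation of the 7 members tested, out of 10514 genes compared over 15 mice. They were Tspan13 (r = 0.92), Susd2 (0.92), Anxa1 (0.92), Anxa5 (0.91), Col4a2, Cd93, Map4k4, Fstl1 and Ptgfrn (0.89 each) and Trim35 (0.87). They were picked as the highest, so they lie above the 95th percentile over all genes (0.55) by construction. Gpnmb and Mmp12 had the largest spread among CL mice (SD 1.79 and 1.93) and so weigh most in the mean deviation. Without CL+CX replicate 1 and CL replicate 2, the mice farthest from their diet means, these r were 0.79 to 0.90. Tspan13, a tetraspanin, was 23.7 to 39.9 in CL+CX mice, 46.5, 26.5, 26.6, 50.7 and 45.6 in CL mice and 10.6 to 15.5 in NC mice, and rose by 1.53 in CL mice (adjusted p = 0.00029). Anxa1 and Anxa5, annexins that bind membrane phospholipids, rose by 1.87 and 0.89 in CL mice (adjusted p = 0.00587 and 0.00519). Susd2 and Col4a2, a chain of basement membrane collagen, had the same division among CL mice and differences between CL and NC of 0.13 (adjusted p = 0.792) and 0.23 (adjusted p = 0.684).

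Of 21 other genes of lipid-associated macrophages that were tested, 10 rose in CL mice and none fell, with a median of 0.44, beside a median of -0.08 over all 10521 genes, of which 7.2% rose. The highest were the β-glucan receptor Clec7a (2.43, standard error 0.29), the actin-capping protein gene Capg (2.20, standard error 0.38), Cd68 (2.15, standard error 0.32) and the integrin Itgax (1.87, standard error 0.43). Itgax, which encodes CD11c, was 53.5, 26.0, 15.97, 22.1 and 30.4 in CL+CX mice, 69.3, 13.8, 27.3, 103 and 53.7 in CL mice and 10.4 to 14.6 in NC mice, with CL replicate 2 within the NC range. Of the 21, 2 fell in CL+CX relative to CL mice, Cd68 by 1.42 (standard error 0.32, limma adjusted p = 0.0293) and Cd72, an inhibitory receptor of B cells and macrophages, by 1.39 (standard error 0.24, adjusted p = 0.013), against 1.78% of all genes, with a median of -0.44 over the 21. Each of these 2 calls was lost under at least 2 alternatives. Cd72 was 17.7 to 26.5 in CL+CX mice, 44.8 to 76.3 in CL mice and 11.6 to 31.0 in NC mice. Capg, Itgax and Cd72 passed the filter through mice of the CL diets alone, so the filter favoured their rise against NC.

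Of 9 partners of TREM2 signalling, 6 rose in CL mice and none fell. Among all genes tested, 7.2% rose in CL mice and 1.78% fell in CL+CX relative to CL mice. Tyrobp rose by 2.25 (standard error 0.30, limma adjusted p = 0.000244), the phospholipase Plcg2 by 1.15, the lipid phosphatase Inpp5d by 1.02 and the kinase Syk by 0.95. Between CL+CX and CL mice Tyrobp fell by 1.28 (standard error 0.30, adjusted p = 0.034), Plcg2 by 0.75 (adjusted p = 0.0394) and Syk by 0.68 (adjusted p = 0.0361). All 18 calls between CL+CX and CL outside the members, those of this paragraph included, were lost under 2 to 16 alternatives each. Apoe, which encodes an apolipoprotein that TREM2 binds and that hepatocytes make in bulk, was at -0.27 in CL against NC mice (adjusted p = 0.204). Treml4, another receptor of the TREM family, rose by 2.08 in CL mice and fell by 1.11 in CL+CX relative to CL mice (standard error 0.28, adjusted p = 0.0415), and its CL mice 2 and 3, at 94.6 and 90.4, were the highest. Of 7 receptors of osteopontin tested, Cd44, a hyaluronan receptor, alone rose in CL mice (2.11, adjusted p = 7.63e-05) and alone fell in CL+CX relative to CL mice (-0.92, adjusted p = 0.0446). Its signal was 78.5 to 159 in CL+CX mice, 192 to 239 in CL mice and 26.7 to 74.4 in NC mice. A single call among 7 genes is no result about the list.

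The families of the members moved in part. Among all genes tested, 7.2% rose in CL mice and 1.78% fell in CL+CX relative to CL mice. A single call in a list this short is near the share over all genes and is no result about the list. The calls between CL+CX and CL given here are among those lost under 2 to 16 alternatives each. Of 11 other tetraspanins, the leukocyte gene Cd53 (2.29, adjusted p = 4.6e-05) and Tspan3 (0.49, adjusted p = 0.0159) rose in CL mice, and both fell in CL+CX relative to CL mice, by 1.19 (adjusted p = 0.0145) and 0.60 (adjusted p = 0.0206). Of 5 other fatty acid binding proteins, Fabp7, Fabp2 and Fabp4 rose in CL mice by 2.00, 1.11 and 0.97, with adjusted p-values of 0.111 to 0.881 for the 5 genes between CL+CX and CL. Of 6 genes of other galectins and a galectin-3 binding protein, Lgals3bp rose by 0.96 and Lgals4 fell by 0.56 in CL mice, where 6.76% of all genes fell. Among 9 cofactors, regulators and relatives of LPL, its activator Apoc2 rose by 0.80 and the endothelial lipase gene Lipg fell by 1.22. Among 8 partners of cathepsin D, the protease genes Ctss (2.28) and Ctsb (0.37) rose, and Ctss fell by 1.04 in CL+CX relative to CL mice (adjusted p = 0.0353). Of 4 inhibitors and neighbours of MMP12, the inhibitor gene Timp1 was at 1.87 in CL against NC mice (standard error 0.57, adjusted p = 0.0439), a call lost under 13 of 25 alternatives (adjusted p up to 0.275), with an estimate as low as 0.81. Timp1 passed the filter through mice of the CL diets alone, which favoured this rise.

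Of 10 transcription factors of the programme, 2 rose in CL mice, Tfec of the MITF and TFE family (1.61, standard error 0.37, limma adjusted p = 0.0114) and Spi1, which encodes the macrophage factor PU.1 (1.57, standard error 0.21, adjusted p = 0.000258). Among all genes tested, 7.2% rose. Both Tfec and Spi1 passed the filter through mice of the CL diets alone, so the filter favoured their rise. Mitf was at 0.30 (adjusted p = 0.221) and Pparg at -0.68 (adjusted p = 0.207), and Tfeb was not tested. Cebpa, a factor of hepatocytes and myeloid cells, fell in CL mice by 0.53 (adjusted p = 0.00559) and was above CL in CL+CX mice by 0.83 (adjusted p = 0.00266), where 1.48% of all genes rose. The call of Cebpa between CL+CX and CL was lost under at least 2 alternatives. Among CL mice 1 to 5, Spi1 was 46.5, 40.0, 43.0, 66.7 and 57.6 and Tfeb 20.02, 12.8, 3.84, 33.0 and 23.2, both with replicates 2 and 3 lowest as for the members, whereas Tfec, at 24.7, 43.2, 31.9, 23.1 and 32.1, had its highest signal in replicate 2.

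**Figure D4:**
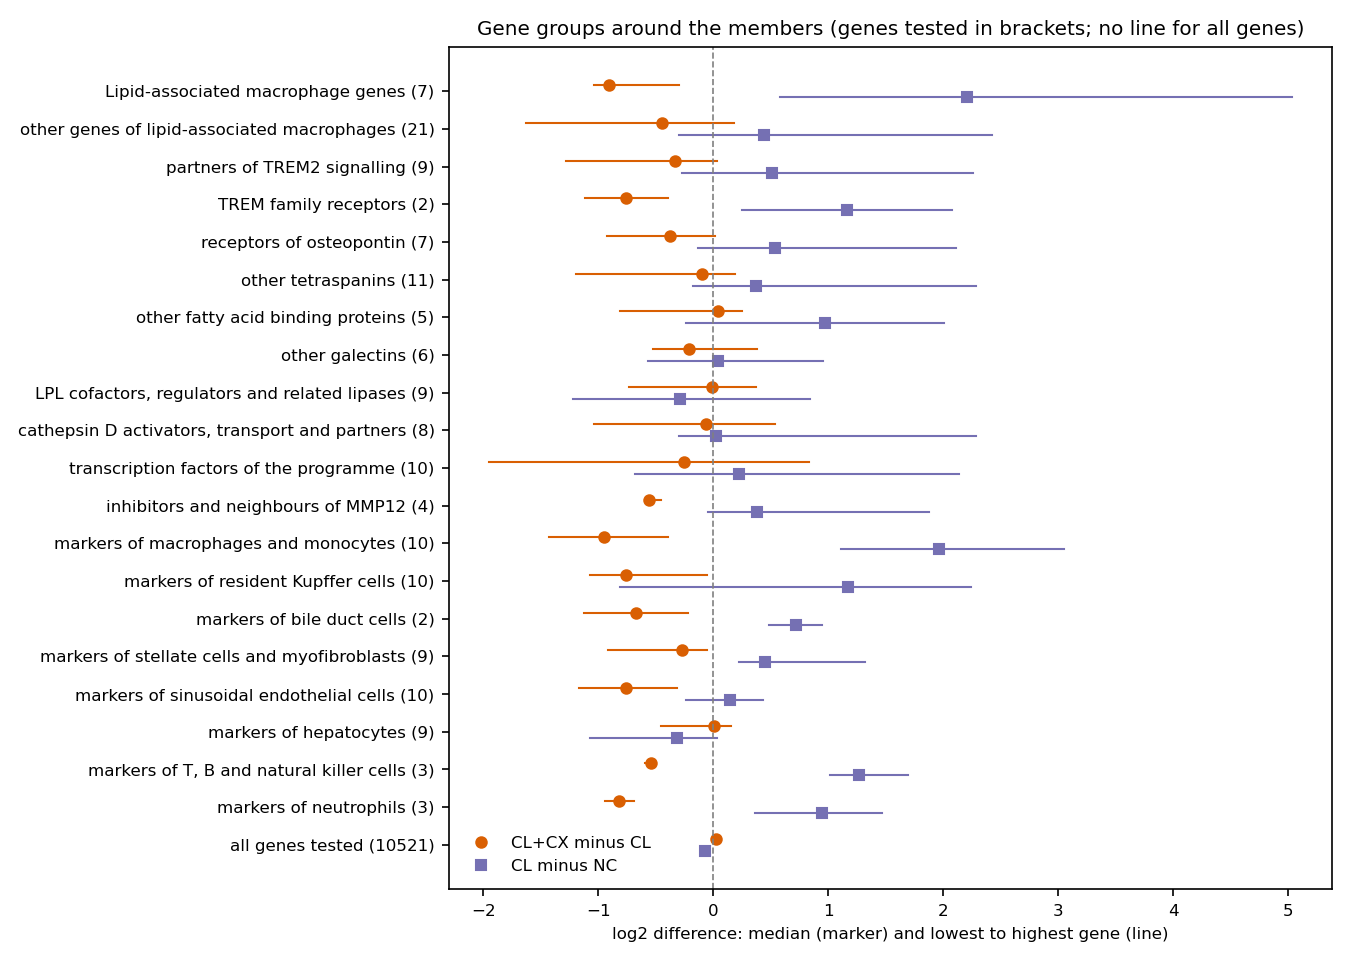
Median log2 difference (marker) and range from the lowest to the highest gene (line) of each gene group, for CL+CX minus CL (circles) and CL minus NC (squares), with the number of genes tested in brackets. The 10 macrophage markers have medians of -0.95 for CL+CX minus CL and 1.97 for CL minus NC, and all genes tested have medians of 0.02 and -0.08. The line of the members ends at the fitted value of Mmp12, which is no measure of fold.

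Markers of the other cell types of a liver sample were read alongside. Among all genes tested, 7.2% rose and 6.76% fell in CL against NC mice, and 1.78% fell in CL+CX against CL mice. Albumin (Alb), the main product of hepatocytes, had signals of 7012 to 8733 in CL+CX mice, 6212 to 11573 in CL mice and 9585 to 12256 in NC mice and was at -0.38 in CL against NC mice (adjusted p = 0.119). Of bile duct markers 2 of 9 measured were tested, Sox9 (0.49, adjusted p = 0.135) and Tspan8 (0.95, adjusted p = 0.238) between CL and NC, and Sox9 fell by 1.13 in CL+CX relative to CL mice (adjusted p = 0.0141). Sox9 passed the filter through CL and NC mice and not through CL+CX mice, which favoured this fall, and the call was lost under at least 2 alternatives. Krt19 was 3.02 to 27.7 in all mice and was not tested. Of 3 lymphocyte markers tested, 2 passed in CL against NC mice, Nkg7 (1.70, adjusted p = 0.0197, lost under 2 of 25 alternatives) and Cd3g (1.01, adjusted p = 0.0453, lost under 17). All 3 entered the test through CL mice alone, so the filter favoured a rise. Of 9 stellate cell markers 1 passed, Hand2 (0.73, adjusted p = 0.0283, lost under 9 of 25 alternatives). Of 9 hepatocyte markers 2 passed, Tat (-1.07, adjusted p = 0.0125, lost under 2 of 26 alternatives) and Hnf4a (-0.56, adjusted p = 0.0224, lost under 11). The 3 neutrophil markers tested, S100a8, S100a9 and Ngp, were at 1.47, 0.94 and 0.36 in CL against NC mice (limma adjusted p = 0.0694 to 0.607) and at -0.69, -0.94 and -0.82 in CL+CX against CL mice (adjusted p = 0.271 to 0.485). They too passed the filter through CL mice alone, which favoured both a rise against NC and a fall in CL+CX relative to CL mice. None of the 7 adipocyte and muscle markers on the array was tested. The adipocyte genes Adipoq and Lep and the muscle gene Myh4 were below the array median on all 15 arrays. Acta1 reached it on 8 of the 15 arrays, Ckm on 6, Retn on 2 and Mb on 1.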

How the data were processed

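Liver RNA of 15 mice was measured with 1 Affymetrix GeneChip array per mouse (5 CL+CX, 5 CL and 5 NC). The authors computed MAS5 signals, and what they deposited is a linear intensity for each probe set, not scaled between arrays (75th percentiles of 41.5 to 79.0). The number of arrays and the signal over background limit the precision. Here signals were brought to an equal 75th percentile on every array, 11.3% of values were raised to a floor of 1, and log2 was taken. Controls (64 probe sets) were left out. Genes were named from the platform annotation (34958 probe sets with 1 symbol, 932 with several, 9211 with none, of 45101), and the probe set with the highest mean log2 signal stands for a gene in lists. The 3 diets were fitted together with limma 3.58.1 in R 4.3.3, in place of the methods' test, and checked on simulated data. Python 3.11.15 with matplotlib 3.10.9 drew the figures.

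The members and lists were chosen with earlier results of these data known. The text names all members, up to 4 genes per list past the test with the largest difference, their partners (Tyrobp, Apoe, Tfeb, Mitf, Tfec, Pparg, Cd68, Clec4f, Krt19 and Alb) and the 10 genes most like the members. Per-mouse values of Itgax, Marco and other list genes were chosen for printing after they were seen. Alternatives were no filter, a filter at the 75th percentile, quantile normalization, unscaled signals, an offset of 16 for low signals, a robust prior with a trend, the methods' test, a fit of 2 groups, leaving out each mouse, a block for the replicate number, the β-actin difference of the array as a covariate, and gene means. Replicate numbers do not mark shared animals, and the labels name no batch. The samples are separate mice.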

Additional observations from a re-analysis of the deposited data

Results flagged for a closer look

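In a test for a single extreme value within 5 mice, run on each of the 12 probe sets in each diet (36 groups, of which chance flags about 1 in 20), 1 group was marked. For the dimmer probe set of Gpnmb, CL+CX replicate 1 had a signal of 1.53 against 0.980 or less in the other CL+CX mice, which lie at the floor of 1, so that the gap takes up the whole range (value 1). All these signals are below the array median.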

How the results depend on the processing

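The number of member probe sets higher in CL than in NC mice, 9 (Gpnmb and Mmp12 included, whose difference from NC the filter favoured), did not change with 1 mouse left out (9 to 9) and was 7 to 9 under the other alternatives. For CL+CX against NC the count of 6 was 4 to 7 with 1 mouse left out and 4 to 6 otherwise, and Gpnmb lost its call there without NC replicate 1, 3 or 5 or CL+CX replicate 1 or 2 (adjusted p = 0.0521 to 0.0736) and Cd9 without NC replicate 2, 4 or 5 or CL+CX replicate 1, 2, 4 or 5 (adjusted p = 0.0647 to 0.0894). For CL+CX against CL the count of 2 was 0 with no filter, with the signals as deposited, with only the 2 groups compared and with the β-actin covariate, 1 with quantile normalization, 4 with the 75th percentile filter and with the offset of 16, and 5 with the methods' test. With 1 mouse left out it was 0 to 6: 0 without NC replicate 5, CL replicate 1, 4 or 5 or CL+CX replicate 2, 3, 4 or 5, 1 without NC replicate 1 or 2 or CL replicate 3, and 6 without CL+CX replicate 1. The cause was not tested. Every one of these estimates for the tested members stayed below 0. For other lipid-associated macrophage genes, the count of 10 in CL against NC was 6 with the covariate (8 to 10 with 1 mouse left out), and the count of 2 in CL+CX against CL was 0 with no filter and with the covariate, 1 with the signals as deposited, with only the 2 groups compared and with the block, 4 with the offset of 16, with the trend and robust prior and with gene means, 5 with the methods' test, and 1 to 4 with 1 mouse left out. Of 696 recomputed member results, 631 stayed on their side of the threshold, 49 lost and 16 gained a call, and none changed direction. Of 2576 recomputed results of other genes, 413 lost their call: all 18 calls between CL+CX and CL were lost under 2 to 16 alternatives each, and 22 of 53 between CL and NC and 17 of 29 between CL+CX and NC under at least 1. Among these genes, Itgb1 in CL+CX against NC changed direction with the mean of all its probe sets (0.0865). The deviations of mice with the same replicate number had r of -0.132 to 0.135. In CL against NC 3 of 5 mice correlated best with their own number, and 0 of 5 did in each of the other comparisons. With the number as a block, the count between CL+CX and CL stayed at 2, with the dimmer probe set of Fabp5 gained (adjusted p = 0.0443) and Cd9 lost (adjusted p = 0.07). The signals as deposited moved the median of all probe sets by 0.315 in CL against NC, so differences there are relative to that shift. Trem2 was under the array median in most mice, and Mmp12 in all NC mice, so signal over background limits both.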
